A study of Mus musculus with 12 samples.

Results

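The livers of mice that ate a NASH diet while receiving nitro-oleic acid were compared with the livers of mice on chow, to see what the diet had changed in the presence of the drug. NASH is nonalcoholic steatohepatitis, fatty liver with inflammation. The comparison takes 6 of the study's 12 RNA-seq libraries, chosen by their labels alone: 3 from C57BL/6J mice on standard chow and 3 from C57BL/6J mice on the NASH diet with a pump of OA-NO2. The NASH diet drew 40% of its calories from fat, carried saturated fat, trans fat, fructose and cholesterol, and was given for 24 weeks. OA-NO2, nitro-oleic acid, is oleic acid that carries an electrophilic nitro group. It was dissolved in polyethylene glycol and released under the skin by an osmotic minipump at 5 mg/kg/day. Other mice on the same diet, with pumps of polyethylene glycol alone (vehicle, 3 libraries) or of oleic acid at the same rate (OA, 3 libraries), are given beside them. Each library is 1 mouse with its own ear tag. The labels name no pump for the chow mice, so diet and pump cannot be told apart against chow. How long the pumps ran, the sex and the age of the mice are not stated.

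As background, a liver overloaded with fat stores triglyceride in lipid droplets, which are coated by perilipins and merged by the CIDE proteins. Dietary cholesterol holds back the sterol-sensing factor SREBP2, which drives the genes of cholesterol synthesis, and steatohepatitis brings in macrophages and matrix-producing cells. Electrophilic fatty acids such as OA-NO2 react with cysteines, among them those of KEAP1, the inhibitor of the antioxidant factor NRF2.

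Total counts ran from 8462590 to 19082770 in the chow libraries and from 17449884 to 19786604 in the OA-NO2 libraries. On the first principal component, which held 46.4% of the variance, chow lay at -71.87 to -44.72, OA-NO2 at -26.77 to 10.28 and vehicle at 22.46 to 54.36. OA lay at -13.48 to 49.62, with its replicate 3, at -13.48, inside the OA-NO2 range. The OA-NO2 library nearest to vehicle was replicate 1. It also held the highest value of the 3 OA-NO2 libraries for 31 of 34 matrix genes and for 12 of 14 markers of recruited macrophages, so the members of these lists described below are given with and without it. The tissue label was borne out by albumin, which took 7.91% to 9.50% of counts in chow and 5.98% to 8.03% with OA-NO2. Mitochondrially encoded transcripts took 13.1% ± 2.13 (SD, n = 3) of counts in chow and 8.01% ± 1.86 (SD, n = 3) with OA-NO2. In whole liver, fewer cells of a type and less RNA per cell cannot be told apart.

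With OA-NO2 on the NASH diet, 99 of 14469 tested genes differed from chow (0.684% of all tested), 63 of them higher (0.435%) and 36 lower (0.249%). A gene was called at a Benjamini-Hochberg adjusted p under 0.05 in edgeR's quasi-likelihood test. Of the 99, 66 changed by more than 1 and 22 by more than 2 on the log2 scale, and 93 were protein coding. All 99 had no overlap between the 3 chow and the 3 OA-NO2 libraries in CPM (counts scaled to library size), against 21.5% of all tested genes. The same test of vehicle against chow called 2786 genes (19.3%), 1606 higher (11.1%) and 1180 lower (8.16%). Of the 99 genes, 90 were also called there, all in the same direction, which is 90.9% of the 99 and 3.23% of the 2786. Both comparisons use the same chow libraries. At an unadjusted p under 0.05, 1552 genes were higher (10.7%) and 1173 lower (8.11%) with OA-NO2 than in chow. In either direction these were 2725 genes with OA-NO2 and 4883 with vehicle, so the gap between the comparisons depends on the threshold.

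The number 99 depended on single libraries. It was 15 without OA-NO2 replicate 1, 71 without replicate 2 and 17 without replicate 3, and 39, 19 and 15 without chow replicates 1, 2 and 3. DESeq2 called 621 genes, among them all 99, and 3237 between vehicle and chow. The genes called under each of these 6 omissions and under every other setting tried were 11: Cidea, Plin4, Cidec, Adam11, Uap1l1, Slc39a4, Slc13a3, Gm19619 and B430212C06Rik, all higher, and Stard4 and Lamb3, both lower. Another 38 genes were called under none of the 6 omissions and 38 under 1. None of the 99 changed direction under any setting. With libraries scaled by their total counts alone, in place of trimmed means of M values (TMM), 1127 genes were called and 97.5% of them were higher, against 63.6% of the 99, as the median over all tested genes then moved from 0.02 to 0.34.

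**Figure D1:**
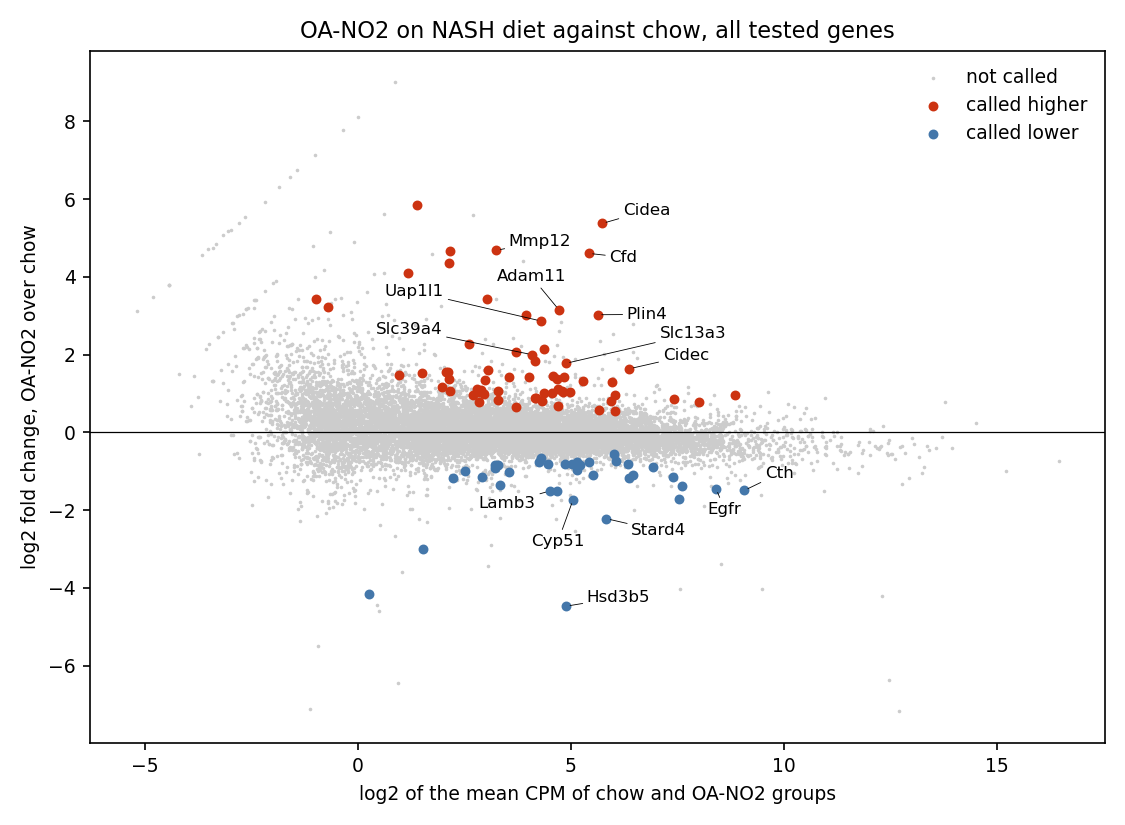
Log2 fold change of OA-NO2 on the NASH diet over chow (vertical axis) against the log2 of the mean CPM of both groups (horizontal axis), 1 point for each of the 14469 tested genes. The 63 genes called higher are red, the 36 called lower are blue, and the labelled genes are described in the text.

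Proteins of the lipid droplet made up the most stable group among the genes that rose. Of 24 tested genes for lipid droplets and lipid uptake, 4 rose and 0 fell, against 0.435% and 0.249% of all tested genes. All 4 are genes of droplet build-up: Cidea, Plin4, Cidec and Mogat1. The list's median log2 fold change was 0.45, against 0.02 over all tested genes, and with vehicle it was 0.07. Cidea, a protein that fuses lipid droplets and is known from brown fat and from fatty hepatocytes, stood at 3.43, 2.48 and 1.92 CPM in chow and at 69.7, 101 and 140 CPM with OA-NO2. Every OA-NO2 library lay far above every chow library, and also above the highest vehicle library, at 54.3 CPM. Cidea rose by 5.38 ± 0.35 (log2 fold change ± SE, adjusted p = 9.36e-06), the lowest p of all genes in this comparison; with vehicle its log2 fold change over chow was 4.16. Plin4, a perilipin that coats droplets, stood at 17.0, 9.98 and 6.34 CPM in chow and at 122, 76.4 and 64.2 CPM with OA-NO2. These groups too were well apart, and Plin4 rose by 3.03 ± 0.38 (adjusted p = 0.00345). Cidec, a relative of Cidea that enlarges droplets, stood at 49.9, 32.1 and 39.0 CPM in chow and at 127, 110 and 139 CPM with OA-NO2. Cidec rose by 1.64 ± 0.22 (adjusted p = 0.0056), close to its 1.77 with vehicle. Mogat1, an enzyme of triglyceride synthesis, stood at 5.61, 4.95 and 3.01 CPM in chow and at 9.21, 10.98 and 13.5 CPM with OA-NO2. It rose by 1.34 ± 0.27 (adjusted p = 0.045), a call lost whichever of the 6 libraries was left out (adjusted p 0.0710 to 0.120).

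Other members of the list did not pass the test. Of all 24, 16 had a positive and 8 a negative log2 fold change, and 12 had all OA-NO2 libraries above chow and 3 all below, against 12.3% and 9.27% of all tested genes. The summed level of the list was 12210 to 15246 CPM in chow and 9047 to 12917 CPM with OA-NO2, and the groups overlapped. Plin2, the main perilipin of hepatocytes, had a log2 fold change of 0.31 (adjusted p = 0.334), and Plin3 one of 0.68 (adjusted p = 0.0636). The fatty acid transporter Cd36 was at 172, 383 and 114 CPM in chow and at 372, 319 and 610 CPM with OA-NO2, so its groups overlapped (log2 fold change 0.96, adjusted p = 0.178). Fabp4, a fatty acid carrier of fat cells and macrophages, had 2.61 (adjusted p = 0.064). Among the negative members, Fabp1, the fatty acid carrier of hepatocytes, had -0.52 (adjusted p = 0.306), Slc27a5, a transporter and ligase of fatty and bile acids, -0.47 (adjusted p = 0.354) and G0s2, an inhibitor of triglyceride breakdown, -1.12 (adjusted p = 0.121). Cidea shares 500 bases with B430212C06Rik, a transcript on the opposite strand. Reads within those bases cannot be told apart, because the use of strand in the counting is not stated. B430212C06Rik averaged 0.365 CPM in chow and 8.40 CPM with OA-NO2. B430212C06Rik was itself called higher, by 4.35 ± 0.48 (adjusted p = 0.00158). Plin4 shares 17 bases with Hdgfl2 on the opposite strand.

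Cfd, which encodes adipsin (complement factor D) and is known as a product of fat cells, stood at 4.21, 3.72 and 2.43 CPM in chow and at 60.8, 125 and 59.2 CPM with OA-NO2. All 3 OA-NO2 libraries were high, as was OA replicate 3 (81.2 CPM), while vehicle held 9.74, 31.8 and 14.9 CPM. Cfd rose by 4.61 ± 0.76 (adjusted p = 0.0252); the call held without OA-NO2 replicate 2 and was lost without any of the other 5 libraries (highest adjusted p 0.101). Of the markers of fat cells, Adipoq had 4 counts in all over the 3 OA-NO2 libraries and 4 over chow, Plin1 2 and 0, Lep 0 and 0, and Retn 2 and 1. These 4 defining markers were thus at or near 0 in the 2 groups compared. One vehicle library, replicate 1, held 40 counts of Adipoq.

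Among the other genes that rose under every setting, Adam11, a member of the ADAM family of surface proteins known from the nervous system, stood at 3.59, 6.06 and 5.95 CPM in chow and at 61.4, 44.9 and 36.5 CPM with OA-NO2. All OA-NO2 libraries lay above all chow libraries, and Adam11 rose by 3.15 ± 0.29 (adjusted p = 0.000323). The gene lies on the plus strand at chr11:102761439-102780262 (GRCm38). Uap1l1, a relative of an enzyme that makes UDP-N-acetylglucosamine, lies at chr2:25359889-25365682. It stood at 4.68, 4.89 and 4.67 CPM in chow, an almost constant level, and at 37.9, 25.8 and 40.4 CPM with OA-NO2. It rose by 2.87 ± 0.37 (adjusted p = 0.0045). Slc39a4, the zinc importer ZIP4, stood at 6.39, 6.54 and 7.36 CPM in chow and at 40.0, 20.5 and 21.1 CPM with OA-NO2. OA-NO2 replicate 1 was the highest, and the rise was 2.00 ± 0.27 (adjusted p = 0.0056). Slc13a3, a sodium-coupled importer of dicarboxylates, stood at 13.4, 13.7 and 12.7 CPM in chow and at 44.2, 48.0 and 44.1 CPM with OA-NO2. It rose by 1.78 ± 0.20 (adjusted p = 0.00164), with little spread in either group. The predicted gene Gm19619, which the naming rule passes over, rose by 2.28 ± 0.24 (adjusted p = 0.00145).

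**Figure D2:**
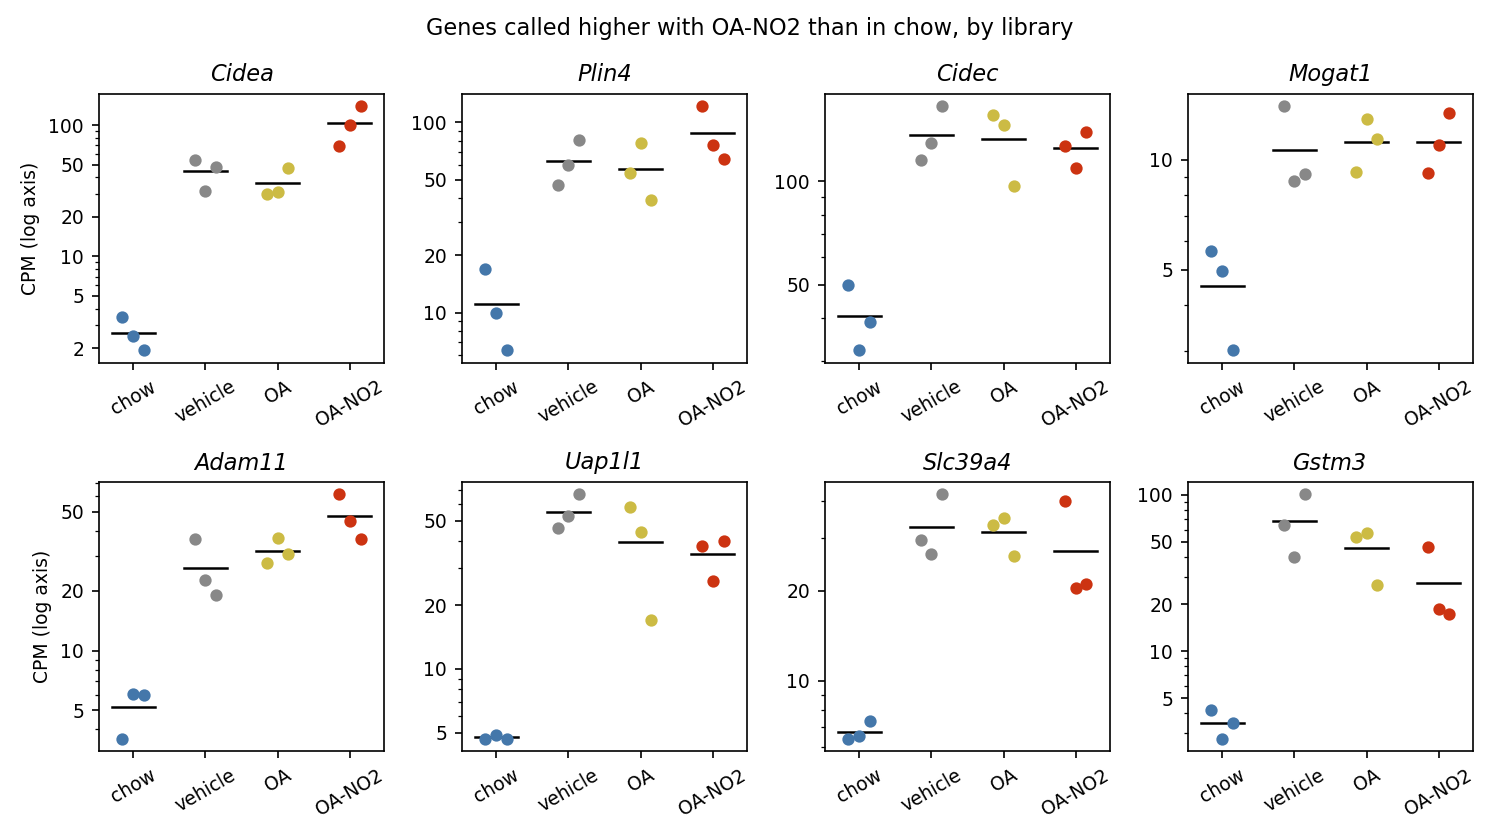
CPM (log axis, with its own scale for each gene) of 8 genes called higher with OA-NO2 than in chow, in all 4 groups. Points are single libraries and bars are group means. In each of the 8 panels the 3 OA-NO2 libraries lie above the 3 chow libraries; the vehicle and OA libraries are shown for comparison.

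Further genes were called higher with less stability. Ephb2, a receptor tyrosine kinase for ephrins, stood at 0.312, 0.344 and 0.320 CPM in chow and at 15.7, 2.12 and 7.91 CPM with OA-NO2. It rose by 4.68 ± 0.93 (adjusted p = 0.045), a call that held without OA-NO2 replicate 2 and was lost without any other library (highest adjusted p 0.146). Ubd, the ubiquitin-like FAT10, was at 1.56, 1.58 and 1.09 CPM in chow and at 14.5, 13.0 and 17.5 CPM with OA-NO2. It rose by 3.43 ± 0.68 (adjusted p = 0.045), and lost the call whichever library was left out (adjusted p 0.0557 to 0.130). Hspb1, a small heat shock protein, was at 4.68, 6.19 and 11.1 CPM in chow and at 56.6, 19.2 and 25.2 CPM with OA-NO2, highest again in replicate 1. It rose by 2.16 ± 0.43 (adjusted p = 0.045), and the call held only without OA-NO2 replicate 2. Hspb1 was the 1 called of 12 tested heat shock genes, where 0.435% of all tested genes were called higher. Of the 12, 8 had a negative log2 fold change. The list's median was -0.25, and 0.07 when libraries were scaled by total counts alone. Orm3, an orosomucoid of the acute phase with near-identical relatives, was at 6.86, 4.82 and 3.97 CPM in chow and at 17.7, 25.2 and 20.6 CPM with OA-NO2. It rose by 2.06 ± 0.30 (adjusted p = 0.00871), and lost the call without chow replicate 2 or 3 (highest adjusted p 0.0698). Ptgfr, the receptor for prostaglandin F, stayed low throughout, at 0.156, 0.206 and 0 CPM in chow and 0.978, 0.881 and 1.45 CPM with OA-NO2. It had 4 or fewer counts in all over the 3 chow libraries, so no fold is given; its adjusted p was 0.0464, lost whichever library was left out (0.0557 to 0.127).

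Genes of the cholesterol synthesis list were low with OA-NO2. Of 25 tested, 0 rose and 3 fell (Stard4, Hsd17b7 and Cyp51), against 0.435% and 0.249% of all tested genes. Of the 25, 24 had a negative log2 fold change, and 14 had all OA-NO2 libraries below all chow libraries, against 9.27% of all tested genes. The list's median was -0.72, against 0.02 over all tested genes, and with vehicle it was -0.98. The promoters of 2 of the called members follow because they show the stretch of DNA at which these genes start. They are from RefSeq (GRCm38.p6), 250 bases before to 50 after the start site, read 5′ to 3′ along the gene's own strand, with each CCAAT or its reverse complement ATTGG in capitals. That motif, the CCAAT box, was chosen after the data were seen.
Hsd17b7 (chr1:169969156-169969455, minus strand): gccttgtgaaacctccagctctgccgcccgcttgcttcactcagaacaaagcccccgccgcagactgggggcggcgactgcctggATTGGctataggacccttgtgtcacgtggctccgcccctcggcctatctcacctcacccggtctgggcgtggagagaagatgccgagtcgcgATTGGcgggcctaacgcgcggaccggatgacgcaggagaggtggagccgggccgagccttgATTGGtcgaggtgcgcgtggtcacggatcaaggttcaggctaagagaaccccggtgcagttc
Cyp51 (chr5:4104648-4104947, minus strand): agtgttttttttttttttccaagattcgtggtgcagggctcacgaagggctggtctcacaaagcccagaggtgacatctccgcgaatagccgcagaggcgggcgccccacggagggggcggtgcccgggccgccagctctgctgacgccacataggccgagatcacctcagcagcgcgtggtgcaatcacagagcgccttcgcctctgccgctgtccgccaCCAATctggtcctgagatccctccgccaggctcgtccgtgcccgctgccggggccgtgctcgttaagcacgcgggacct
Searched on both strands, CCAAT was found in the promoters of 16 of the 17 list genes that have an entry, and in 37.4% of the 32851 promoters in the table. Hsd17b7 held 3 matches and Cyp51 held 1. The sterol response motif TCACNCCAC was in 1 of the 17 and in 1.24% of all promoters, and neither sequence above holds it. It was searched for in this form alone, so sites of another form were not counted and may be present. A match is only a run of letters.

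Stard4, a carrier that moves sterol between membranes, stood at 97.8, 90.7 and 92.5 CPM in chow and at 20.1, 21.2 and 19.1 CPM with OA-NO2. The 2 groups were each tight and far apart, and Stard4 fell by 2.22 ± 0.26 on the log2 scale (adjusted p = 0.00198). Hsd17b7, a reductase of the late pathway whose promoter is printed above, stood at 51.3, 41.7 and 40.6 CPM in chow and at 27.7, 22.0 and 28.7 CPM with OA-NO2. It fell by 0.76 ± 0.15 (adjusted p = 0.0457). Cyp51, the lanosterol demethylase, stood at 86.6, 32.4 and 34.1 CPM in chow and at 11.4, 14.2 and 19.99 CPM with OA-NO2, so chow replicate 1 was far above its group. It fell by 1.73 ± 0.35 (adjusted p = 0.0469). Hsd17b7 and Cyp51 lost their calls whichever library was left out, with adjusted p of 0.0698 to 0.126 for Hsd17b7 and of 0.0687 to 0.162 for Cyp51. Sqle, the squalene epoxidase, showed the same uneven chow group at 35.4, 7.43 and 7.30 CPM, against 3.96, 2.75 and 3.81 CPM with OA-NO2. Its log2 fold change was -2.20 (adjusted p = 0.0658).

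Of 23 tested antioxidant genes known as targets of NRF2, 3 rose and 0 fell, against 0.435% and 0.249% of all tested genes. The list's median was 0.48, and with vehicle it was 0.76. Gsta1, a glutathione transferase, stood at 0, 0.482 and 0.128 CPM in chow and at 2.93, 1.97 and 8.03 CPM with OA-NO2. It rose by 4.10 ± 0.73 (adjusted p = 0.0381), and kept the call without OA-NO2 replicate 2 but not without any other library (highest adjusted p 0.0921). Gstm3, another glutathione transferase, stood at 4.21, 2.75 and 3.46 CPM in chow and at 46.1, 18.6 and 17.4 CPM with OA-NO2, highest in replicate 1. It rose by 3.01 ± 0.47 (adjusted p = 0.019), a call lost without OA-NO2 replicate 1 or chow replicate 2 or 3 (highest adjusted p 0.0943). Both have close relatives among which reads may be split. Srxn1, sulfiredoxin, stood at 39.8, 44.9 and 48.1 CPM in chow and at 100, 63.9 and 97.2 CPM with OA-NO2. It rose by 0.98 ± 0.19 (adjusted p = 0.045), and kept the call only without OA-NO2 replicate 2 (highest adjusted p 0.146). Its promoter is the only one of the 3 with the antioxidant response core TGACNNNGC or its reverse complement, shown in capitals in the RefSeq sequence (GRCm38.p6), 250 bases before to 50 after the start.
Srxn1 (chr2:152105274-152105573, plus strand): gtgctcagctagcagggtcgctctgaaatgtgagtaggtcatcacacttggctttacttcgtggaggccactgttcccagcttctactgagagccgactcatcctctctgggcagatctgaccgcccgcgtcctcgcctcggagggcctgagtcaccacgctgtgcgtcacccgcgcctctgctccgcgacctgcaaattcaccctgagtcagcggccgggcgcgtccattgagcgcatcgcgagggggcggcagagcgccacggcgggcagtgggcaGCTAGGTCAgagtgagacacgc
The match begins 28 bases past the start site. The core was searched for in this form alone, and a match is only a run of letters. The core was in 9 of 20 list genes with an entry and in 12.4% of all promoters. Among the members not called, the log2 fold change was 0.47 for the quinone reductase Nqo1 (adjusted p = 0.299), 0.58 for the heme oxygenase Hmox1 (adjusted p = 0.283) and 0.48 for Ptgr1, a reductase that acts on nitro fatty acids (adjusted p = 0.63). The glutamate-cysteine ligase subunits had 0.69 for Gclc (adjusted p = 0.12) and -0.09 for Gclm (adjusted p = 0.778).

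Among the other genes that fell, Lamb3, a chain of laminin, stood at 36.8, 30.7 and 32.9 CPM in chow and at 13.4, 11.7 and 10.2 CPM with OA-NO2. It fell by 1.51 ± 0.20 (adjusted p = 0.0056) and was called under every setting. Lamb3 lies at chr1:193207699-193343878 (plus strand) and spans Hsd11b1 and G0s2 on the opposite strand. Both are abundant in liver and had log2 fold changes of -0.91 (adjusted p = 0.207) and -1.12 (adjusted p = 0.121). Within the shared bases, their reads cannot be told apart from those of Lamb3 without strand. Hsd3b5, a steroid dehydrogenase known from the male liver, stood at 43.8, 57.5 and 68.4 CPM in chow and at 1.85, 4.82 and 0.906 CPM with OA-NO2. In vehicle it was at 0.186, 0.213 and 0.211 CPM, below all OA-NO2 libraries. Hsd3b5 fell by 4.47 ± 0.89 (adjusted p = 0.045), a call lost whichever library was left out (adjusted p 0.0509 to 0.150). It was the 1 called of 24 tested growth hormone and sex-biased genes, where 0.249% of all tested genes were called lower. The list's median was -0.63, and -1.48 with vehicle. Egfr, the receptor of epidermal growth factor, stood at 567, 263 and 659 CPM in chow, lowest in replicate 2, and at 179, 207 and 161 CPM with OA-NO2. It fell by 1.44 ± 0.29 (adjusted p = 0.0469), a call that held only without chow replicate 2 (highest adjusted p 0.147).

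C8b, a chain of the complement membrane attack complex, stood at 250, 233 and 358 CPM in chow and at 98.9, 114 and 110 CPM with OA-NO2. It fell by 1.38 ± 0.22 (adjusted p = 0.022), and lost the call without OA-NO2 replicate 1 or 3 or chow replicate 3 (highest adjusted p 0.102). C8b was the 1 called of 22 tested complement and coagulation genes, where 0.249% of all tested genes were called lower. The list's median was -0.39. Cth, the enzyme that makes cysteine from cystathionine, stood at 815, 787 and 769 CPM in chow and at 231, 280 and 332 CPM with OA-NO2. The groups were far apart, and Cth fell by 1.49 ± 0.30 (adjusted p = 0.045), yet the call was lost whichever library was left out (adjusted p 0.0739 to 0.158). Slc2a5, the fructose transporter GLUT5, stood at 12.6, 11.6 and 19.0 CPM in chow and at 5.25, 5.91 and 5.74 CPM with OA-NO2. It fell by 1.36 ± 0.27 (adjusted p = 0.045), again lost whichever library was left out (0.0807 to 0.147). Adgrf1, an adhesion receptor, was at 1.25, 1.65 and 3.91 CPM in chow and had 0.103, 0.259 and 0 CPM with OA-NO2. Its fall (adjusted p = 0.022) was lost without OA-NO2 replicate 1 or 3 or chow replicate 3, with a highest adjusted p of 0.104. The remaining named falls were Fam47e (-1.50), Zfp799 (-1.18) and Plcxd2 (-1.17), with adjusted p of 0.0381 to 0.0469; Fam47e kept its call only without OA-NO2 replicate 2, and Zfp799 and Plcxd2 under none of the 6 omissions.

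**Figure D3:**
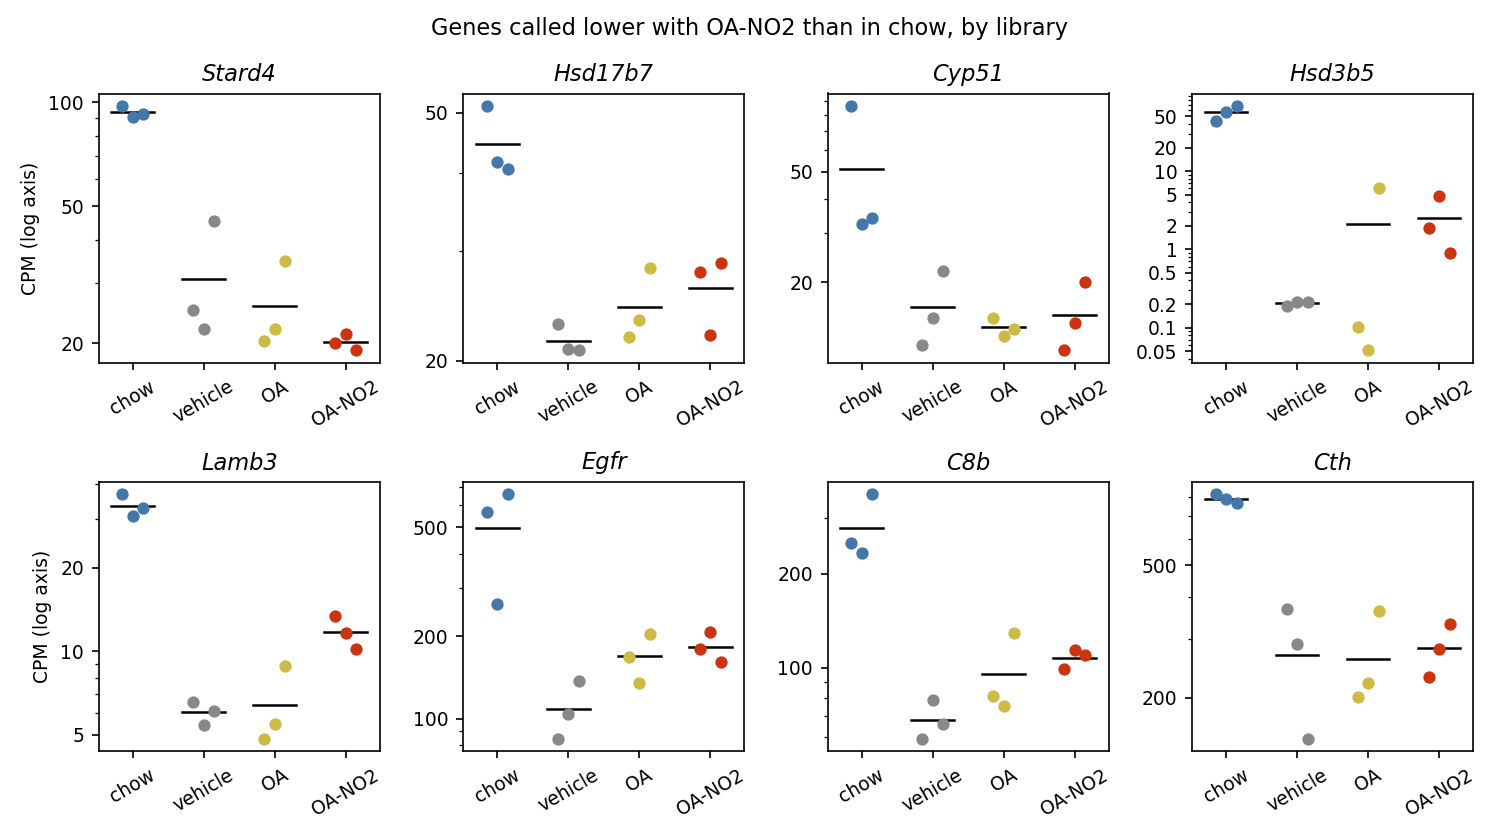
CPM (log axis, with its own scale for each gene) of 8 genes called lower with OA-NO2 than in chow, in all 4 groups. Points are single libraries and bars are group means. In each panel the 3 OA-NO2 libraries lie below the 3 chow libraries; for Hsd3b5 they also lie above the 3 vehicle libraries.

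Markers of recruited and lipid-laden macrophages were between chow and vehicle. Of 14 tested, 1 rose (Mmp12) and 0 fell, against 0.435% and 0.249% of all tested genes. For 11 of the 14, all OA-NO2 libraries lay above all chow libraries, against 12.3% of all tested genes. The median log2 fold change was 1.77 (1.46 without OA-NO2 replicate 1), and 3.35 with vehicle. There 12 of the 14 were called higher, against 11.1% of all tested genes. Between OA-NO2 and vehicle 0 of the 14 were called, where 0.0207% of all tested genes were. The summed level of the list was 50.7 to 99.6 CPM in chow, 143 to 333 CPM with OA-NO2 and 381 to 923 CPM with vehicle. With OA it was 210 to 792 CPM, and OA replicate 3 lay within the OA-NO2 range. Mmp12, the macrophage elastase, stood at 0.468, 1.10 and 0.448 CPM in chow and at 38.3, 3.32 and 13.3 CPM with OA-NO2, a wide spread led by replicate 1. It rose by 4.68 ± 0.98 (adjusted p = 0.0498); the call held only without OA-NO2 replicate 2, and without replicate 1 the log2 fold change was 3.53 (adjusted p 0.162). Gpnmb, a glycoprotein of lipid-laden macrophages, stood at 0.780, 0.206 and 0.0640 CPM in chow and at 27.9, 1.66 and 8.34 CPM with OA-NO2. Its log2 fold change of 5.61 ± 1.31 did not pass the test (adjusted p = 0.0638), and without replicate 1 it was 4.25 (adjusted p = 0.200); without replicate 2 it passed (adjusted p = 0.0344). Trem2, the lipid-sensing receptor of the same cells, had 2.12 ± 0.62 (adjusted p = 0.112), and 1.56 without replicate 1 (adjusted p = 0.335).

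Matrix and fibrosis genes gave 0 calls among 34 tested with OA-NO2, where 0.684% of all tested genes were called. At an unadjusted p under 0.05 (edgeR), 20 of the 34 were higher and 0 lower than in chow. The shares of all tested genes were 10.7% and 8.11%. Vehicle gave 32 called higher, against 11.1% of all tested genes. Between OA-NO2 and vehicle 0 of the 34 were called, where 0.0207% of all tested genes were. At an unadjusted p under 0.05 (edgeR) 25 were lower and 0 higher than with vehicle, against 8.51% and 7.25% of all tested genes. Summed CPM of the list ran from 1709 to 2027 in chow and from 1632 to 2583 with OA-NO2. It ran from 2197 to 3107 with vehicle and from 2063 to 3014 with OA, so OA-NO2 overlapped each of these groups. Of the 34, 33 had a positive log2 fold change and 18 had all OA-NO2 libraries above all chow libraries, against 12.3% of all tested genes. The median was 1.05, but 0.51 without OA-NO2 replicate 1, and 2.07 with vehicle. Col1a1, the main chain of fibrillar collagen, stood at 2.03, 0.963 and 1.92 CPM in chow and at 35.4, 5.65 and 10.4 CPM with OA-NO2. All 3 OA-NO2 libraries were above chow, with replicate 1 far above the others, and the log2 fold change was 3.44 ± 0.83 (adjusted p = 0.0695). Without replicate 1 it was 2.33 (adjusted p = 0.237). Timp1, the inhibitor of matrix proteases, had 1 read in all over the 3 chow libraries and stood at 2.42, 0.518 and 0.725 CPM with OA-NO2 (adjusted p = 0.106, and 0.296 without replicate 1). Col1a1 and Timp1 were each called with DESeq2, with total counts alone and with no filter on low counts. Markers of stellate cells, the source of liver collagen, gave 0 calls among 11 tested, with a median of 0.61 that was 0.14 without OA-NO2 replicate 1.

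Genes of antigen presentation on MHC class II were higher in every OA-NO2 library than in every chow library for 9 of 9 tested members, against 12.3% of all tested genes. Of these 9 genes, 0 passed the test, where 0.684% of all tested genes did. Their median was 1.33, and with vehicle 2.60, with 9 of 9 called higher, against 11.1% of all tested genes. Between OA-NO2 and vehicle 0 of the 9 were called, where 0.0207% of all tested genes were. Their summed level was 112 to 252 CPM in chow, 353 to 463 CPM with OA-NO2 and 783 to 1018 CPM with vehicle. With OA it was 473 to 1101 CPM, lowest in OA replicate 3. Cd74, the invariant chain, stood at 24.6, 33.4 and 65.3 CPM in chow and at 150, 135 and 91.5 CPM with OA-NO2 (log2 fold change 1.60 ± 0.35, adjusted p = 0.0536). Markers of lymphocytes gave 0 calls among 15 tested. Their median of 0.42 rested on single libraries, at 0.02 without OA-NO2 replicate 2 and 0.00 without chow replicate 2. Those of cholangiocytes, the cells of the bile ducts, gave 0 calls among 9 (median 0.67). Chemokines and cytokines gave 0 among 19 (median 0.67, but 0.45 without OA-NO2 replicate 1 and 1.14 without chow replicate 3), of which Cxcl9, a chemokine that draws T cells, had 1.30 (adjusted p = 0.0658). How far the share of these cells in the tissue bears on the genes called was not tested.

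Lysosomal genes gave 2 calls among 18 tested, both higher, where 0.435% of all tested genes were called higher. Hexa, a subunit of the lysosomal hexosaminidase, stood at 48.2, 41.4 and 44.1 CPM in chow and at 79.3, 70.7 and 84.0 CPM with OA-NO2, and rose by 0.81 ± 0.14 (adjusted p = 0.028). Ctsz, cathepsin Z, stood at 188, 172 and 207 CPM in chow and at 295, 341 and 348 CPM with OA-NO2, and rose by 0.79 ± 0.14 (adjusted p = 0.0397). Both groups were tight for both genes, but Hexa kept its call only without OA-NO2 replicate 2 or chow replicate 1 (highest adjusted p 0.101), and Ctsz under none of the 6 omissions (0.0526 to 0.120). Of 18 interferon response genes, Oasl2 alone was called, rising by 0.77 ± 0.16 (adjusted p = 0.0464; 0.0698 to 0.128 without single libraries). The list's median was -0.16, and 0.14 when libraries were scaled by total counts alone.

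Lists of hepatocyte function gave no call with OA-NO2, where 0.684% of all tested genes were called. They were hepatocyte identity (21 tested, median -0.36), urea cycle and amino acids (20, -0.66), bile acids (18, -0.48), drug metabolism (24, -0.30), apolipoproteins (14, -0.29), fatty acid oxidation (26, -0.16), lipogenesis (21, 0.30) and glucose and glycogen (21, -0.17). In that order, 5, 8, 8, 4, 4, 7, 2 and 6 members had all OA-NO2 libraries below all chow libraries, against 9.27% of all tested genes. All OA-NO2 libraries lay above chow for 0, 1, 1, 2, 0, 4, 5 and 4 members, against 12.3%. When libraries were scaled by total counts alone, the medians of drug metabolism, apolipoproteins, fatty acid oxidation and glucose and glycogen turned positive, at 0.03, 0.02, 0.15 and 0.16. The medians with vehicle, in the order of the lists above, were -0.74, -1.12, -0.65, -0.81, -0.66, -0.65, -0.03 and -0.13. The genes nearest to the threshold were Pdk4, the kinase that turns off pyruvate dehydrogenase, Apom, a carrier of sphingosine phosphate, and Gys2, the liver glycogen synthase. Pdk4 stood at 12.9, 7.71 and 9.28 CPM in chow and at 45.3, 33.2 and 37.0 CPM with OA-NO2 (log2 fold change 1.97 ± 0.42). Gys2 stood at 622, 546 and 522 CPM in chow and at 151, 256 and 338 CPM with OA-NO2 (-1.18 ± 0.26). Apom had -1.07 ± 0.23, and each of the 3 had an adjusted p of 0.0516. Cyp7a1, the enzyme that starts the classical route to bile acids, had -0.76 (adjusted p = 0.2), and Scd1, the desaturase that makes oleic acid, 0.77 (adjusted p = 0.0974). The mitochondrially encoded genes had a median of -0.99 with 0 called of 13, and 6 of them, such as mt-Co3 at 19254, 635 and 19877 CPM in chow, were uneven within groups.

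**Figure D4:**
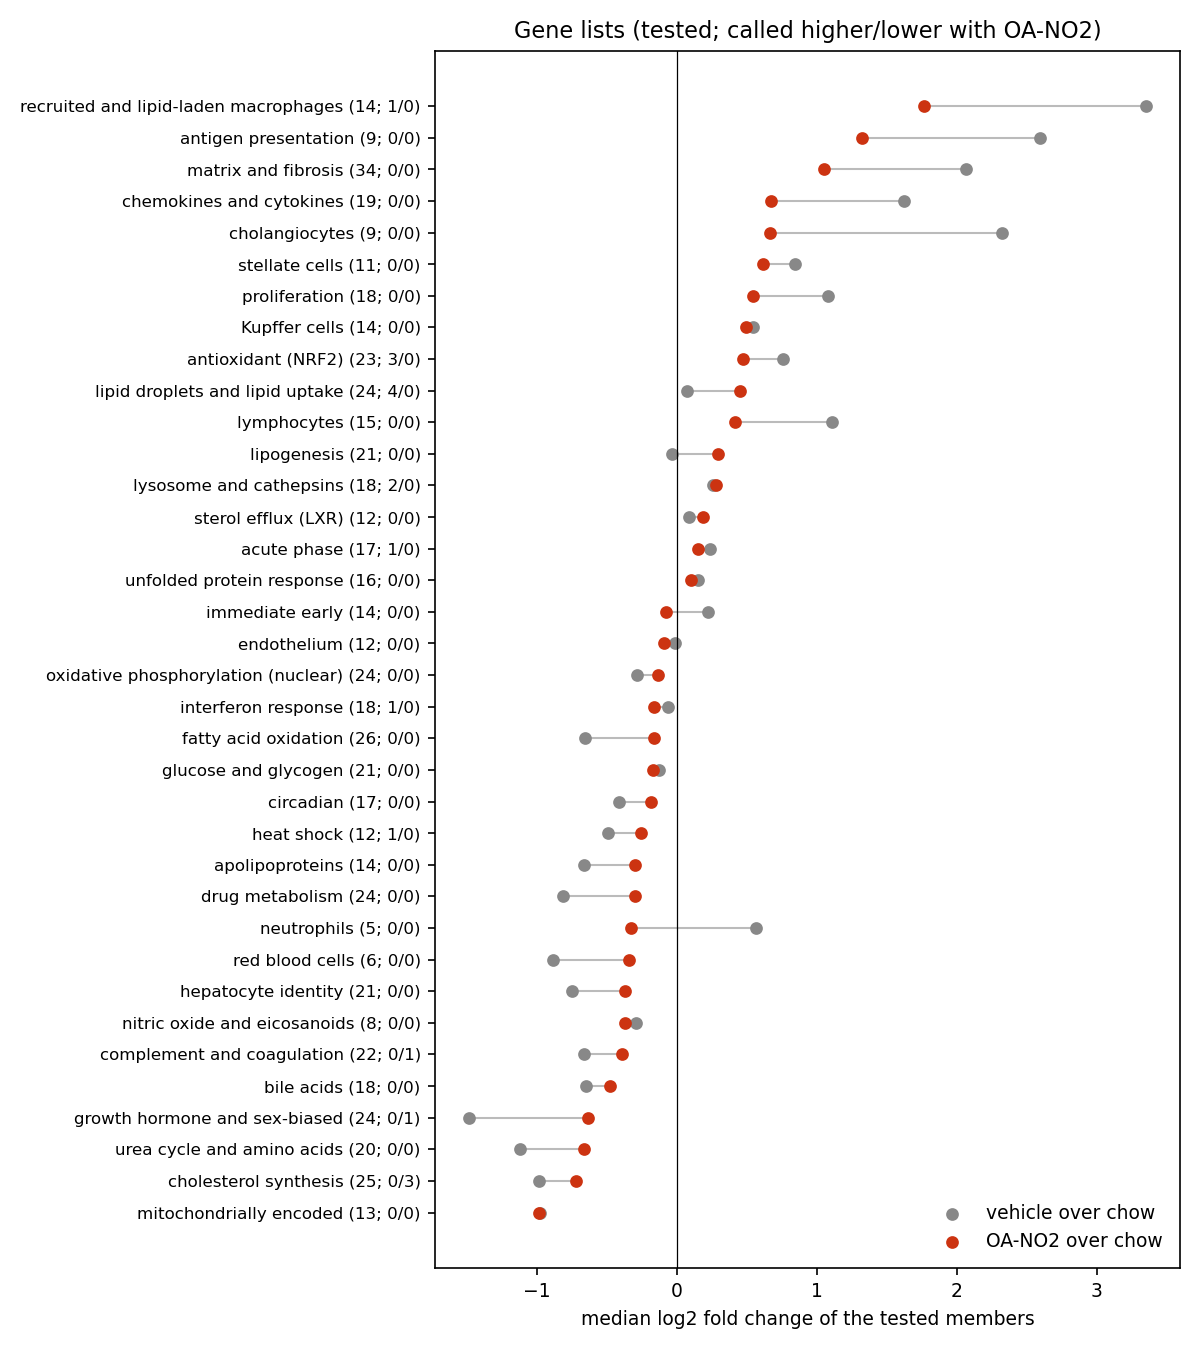
Median log2 fold change over chow of the tested members of each gene list with at least 5 of them, for OA-NO2 (red) and for vehicle (grey), both on the NASH diet. Numbers beside each name are the tested members and those called higher and lower with OA-NO2; the list of recruited and lipid-laden macrophages has medians of 1.77 and 3.35, and that of cholesterol synthesis of -0.72 and -0.98.

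Whether these residual changes differed from those with vehicle was asked by testing OA-NO2 directly against vehicle, since chow cancels out of that difference. None of the 99 genes was called there in edgeR's fit of all 12 libraries, which called 3 of all tested genes (0.0207%). At an unadjusted p under 0.05, 1049 were higher (7.25%) and 1232 lower (8.51%). Other settings called 300 genes (DESeq2), 151 (no filter on low counts) and 62 (a fit of the 2 groups). How many of the 99 are among those calls was not counted. The 95% interval of OA-NO2 minus vehicle lay within 1 on the log2 scale, in either direction, for 64 of the 99. The point estimates were nearer to chow than vehicle for 53 of the 99. The median log2 fold change over chow was 1.38 with OA-NO2 and 1.32 with vehicle for the 63 genes that rose, and -1.05 and -1.10 for the 36 that fell. As these genes were picked by the OA-NO2 value, the pairs of medians are a description.

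The difference from vehicle was small for Cidec, at -0.13 (95% interval -0.59 to 0.33), Mogat1, at 0.07 (-0.46 to 0.60), Orm3, at 0.17 (-0.40 to 0.74), and Cth, at 0.06 (-0.57 to 0.69). For Cyp51 it was -0.10 (-0.84 to 0.65) and for Plin4 0.49 (-0.23 to 1.22), intervals that still allow a difference of the size of 1 in Plin4. Other genes were further from chow with OA-NO2 than with vehicle, with intervals that exclude 0 before adjustment. Cidea was higher than with vehicle by 1.21 (0.63 to 1.80; adjusted p = 0.138), Cfd by 2.13 (0.75 to 3.50) and Adam11 by 0.87 (0.32 to 1.42), and Stard4 was lower by -0.61 (-1.16 to -0.07). In the same order, OA-NO2 minus OA was 1.53 (0.93 to 2.12), 1.17 (-0.16 to 2.51), 0.58 (0.04 to 1.13) and -0.35 (-0.89 to 0.19). In others the residual change was smaller than with vehicle. That held for Mmp12, at -1.84 (-3.32 to -0.35), Gstm3, at -1.32 (-2.19 to -0.46), Ubd, at -1.32 (-2.45 to -0.18), and Gsta1, at -1.10 (-2.11 to -0.09), and among falls for Hsd3b5, at 3.61 (0.86 to 6.35), Lamb3, at 0.96 (0.51 to 1.41), Egfr, at 0.75 (0.12 to 1.38), and C8b, at 0.66 (0.19 to 1.13). None of these differences passed adjustment over all genes in edgeR. The falls differed from OA by 0.35 (-1.65 to 2.35) for Hsd3b5 and 0.88 (0.44 to 1.33) for Lamb3. For Egfr it was 0.11 (-0.51 to 0.73) and for C8b 0.17 (-0.30 to 0.65). Hsd3b5 stood at 6.14 CPM in OA replicate 3, above all OA-NO2 libraries. Rises differed from OA by -1.64 (-3.12 to -0.16) for Mmp12 and -0.74 (-1.61 to 0.12) for Gstm3. For Ubd it was -1.34 (-2.48 to -0.21) and for Gsta1 -0.86 (-1.88 to 0.15). Mmp12, Gstm3, Ubd, Gsta1 and Hsd3b5 were also picked by the size of their difference from vehicle towards chow, so their values describe that choice. Cidea, Cfd, Adam11 and Stard4 were named for their change between OA-NO2 and chow. That choice uses the same OA-NO2 libraries and favours values further from chow, so their differences from vehicle are a description too.

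Of the 99 genes, 9 were called with OA-NO2 and not with vehicle: Chka, Acot2, St5, Slc19a1 and Als2cl, which rose, and Nostrin, Tob1, Ddx60 and Gm10033, which fell. They lie outside the rule for named genes and were chosen after their values were seen. Chka, choline kinase alpha, the first enzyme of phosphatidylcholine synthesis from choline, stood at 16.8, 10.1 and 11.8 CPM in chow, 16.2, 29.3 and 19.6 CPM with vehicle and 45.8, 29.3 and 29.7 CPM with OA-NO2. Acot2, a mitochondrial thioesterase of fatty acyl-CoA, stood at 14.7, 18.6 and 13.7 CPM in chow, 36.3, 24.1 and 18.2 CPM with vehicle and 47.0, 34.8 and 43.9 CPM with OA-NO2. The 2 genes were 0.69 (0.14 to 1.24) and 0.68 (0.11 to 1.25) higher than with vehicle, and neither difference passed adjustment.

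**Figure D5:**
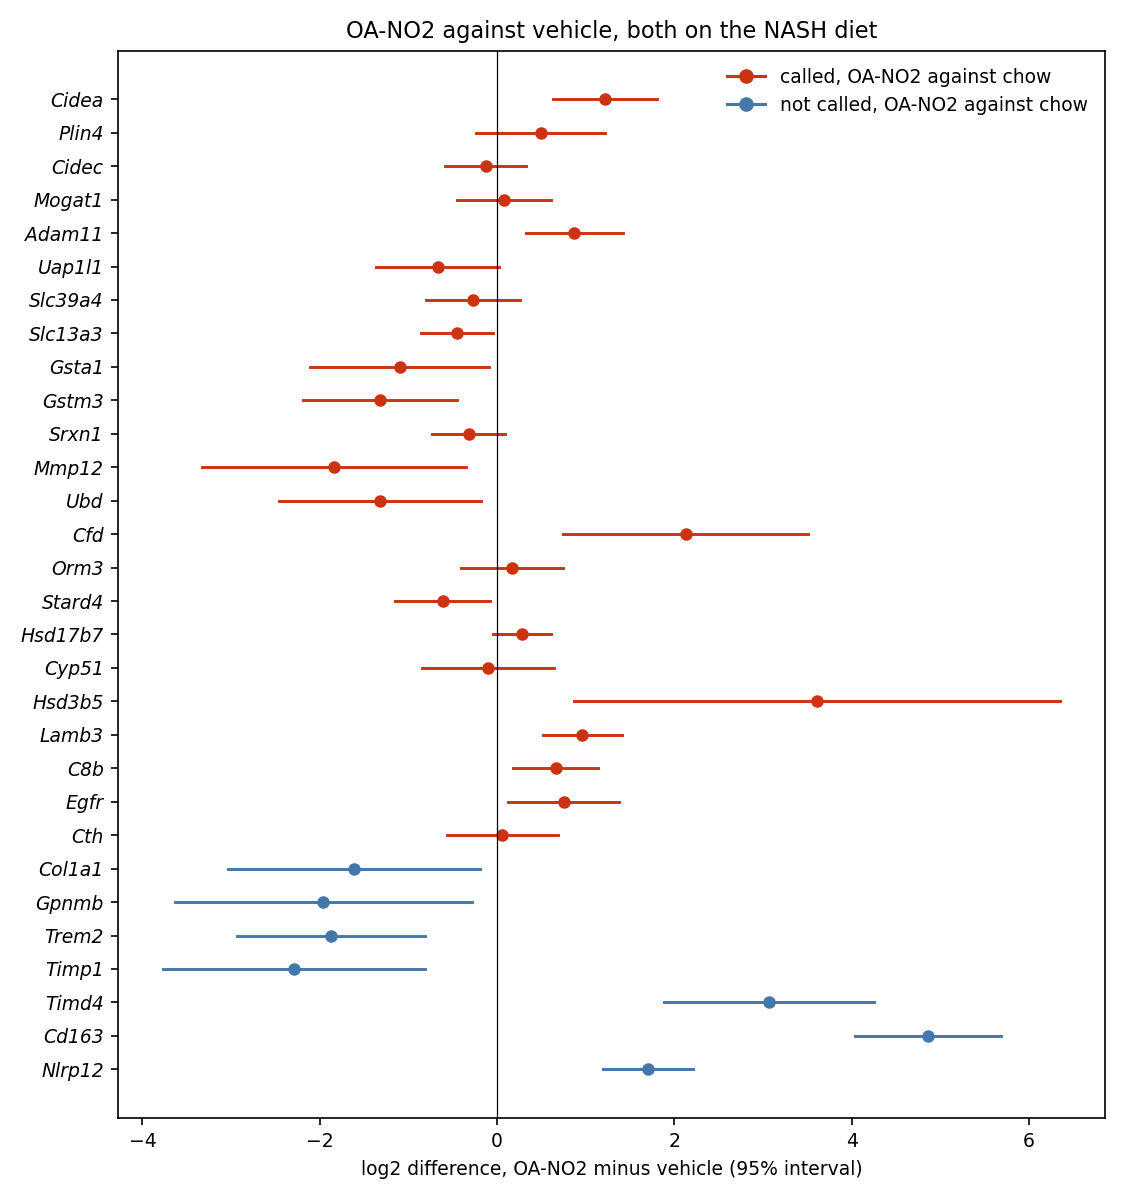
Log2 difference between OA-NO2 and vehicle, both on the NASH diet, with its 95% interval, for genes called between OA-NO2 and chow (red) and genes that were not (blue). Intervals for Cidec, Mogat1 and Cth lie around 0, while Cd163, at 4.85, is furthest from it.

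Against these, 3 genes were called between OA-NO2 and vehicle, and none of them was called against chow. Cd163, the haemoglobin scavenger receptor of resident liver macrophages (Kupffer cells), stood at 15.9, 18.9 and 15.3 CPM in chow, 0.978, 0.640 and 0.296 CPM with vehicle and 15.7, 22.8 and 16.9 CPM with OA-NO2. The OA-NO2 and chow libraries overlapped (log2 fold change 0.14, adjusted p = 0.827), and all OA-NO2 libraries were above all vehicle libraries, by 4.85 ± 0.38 (adjusted p = 9.81e-05). Cd163 was also the 1 gene called between OA-NO2 and OA, both infused at the same rate (0.00691% of all tested). Timd4, another marker of resident Kupffer cells, stood at 5.30, 7.91 and 12.0 CPM in chow and at 4.07, 12.0 and 5.68 CPM with OA-NO2, against 0.845 to 0.885 CPM with vehicle. It had -0.24 ± 0.48 against chow (adjusted p = 0.821) and 3.07 (95% interval 1.88 to 4.25) against vehicle (adjusted p = 0.0965). Of 14 tested Kupffer cell markers, 0 were called against chow, where 0.684% of all tested genes were. Their summed level was 468 to 821 CPM in chow, 830 to 1035 CPM with OA-NO2 and 946 to 1094 CPM with vehicle. With vehicle, 6 of the 14 were called higher than in chow and 3 lower, against 11.1% and 8.16% of all tested genes, with a median of 0.55. The median of OA-NO2 minus vehicle was -0.19, with 3 markers higher and 4 lower at an unadjusted p under 0.05 (edgeR). Cd163 and Timd4 thus do not stand for the whole list. Cyp4a14, an enzyme of fatty acid hydroxylation that follows PPAR-alpha, stood at 5303, 6111 and 5188 CPM in chow and had a log2 fold change of -0.42 with OA-NO2 (adjusted p = 0.662) and of -2.04 with vehicle.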

How the data were processed

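RNA was taken from whole liver of 12 C57BL/6J mice, 3 per group, with Trizol, prepared with the KAPA mRNA HyperPrep kit and read in pairs of 76 bases, per the labels' protocols. Trimmomatic 0.35, HISAT2 2.1.0, SAMtools 1.2 and HTSeq with the build GRCm38 are named in the submitters' processing notes. No source used here gives the annotation release, whether strand was used or how reads with several matches were handled. The authors deposited raw counts per gene, as whole numbers, for 24983 genes. The 69 identifiers without a symbol held 0.0143% of counts, and 0 columns were left unmapped. No replicate libraries agreed within sampling noise (lowest chi-square per degree of freedom 24.3).

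From these counts, edgeR 4.0.16 (R 4.3.3, limma 3.58.1) kept 14469 genes by its default filter (at least 10 counts in enough libraries and 15 in all). After TMM scaling, a single quasi-likelihood model took in the 12 libraries with 1 coefficient per group, so that the groups share 1 estimate of the spread (biological coefficient of variation 0.226). The contrasts were OA-NO2 against chow, vehicle and OA, and vehicle against chow, tested with Benjamini-Hochberg adjustment over all tested genes and a threshold of 0.05. Each standard error was derived from the log2 fold change and the F statistic of its test, an approximation on which the 95% intervals rest. CPM use TMM-scaled totals. No fold is given where the 3 libraries of a group held 4 or fewer counts in all.

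The genes and the 37 gene lists (643 genes, 602 of them tested) were chosen with earlier results of these data known, so lists are described by counts and medians, with no test of their own. The rule for named genes took the 12 largest rises and 12 largest falls whose mean reached 1 CPM in either group and whose groups did not overlap, passing over predicted genes, pseudogenes, immunoglobulin segments, histones and the Mup family (9 of the 99). It added up to 4 called members of each list or, where none was called, the member with the lowest p. The genes called against vehicle that are in a list and a fixed set of 18 genes were also added. Of the called genes with an absolute log2 fold change over 2, it took those nearest to vehicle and those furthest from vehicle towards chow. Coordinates are from GENCODE M21 (GRCm38), 1-based. Promoters are from RefSeq (GRCm38.p6), and 79 of the 99 genes matched by symbol. Alternatives were DESeq2 1.42.0, scaling by total counts alone, no filter on low counts, a fit of the compared groups only, and each library left out. Mice were numbered within groups by deposit order, which pairs none of them.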

Additional observations from a re-analysis of the deposited data

Results flagged for a closer look

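The difference between the diet change with OA-NO2 and the diet change with vehicle passed the test for 3 genes, and the difference from the diet change with OA for 1. Cd163, the scavenger receptor of resident liver macrophages, was 4.85 higher on the log2 scale with OA-NO2 than with vehicle (95% interval 4.03 to 5.68; edgeR adjusted p = 9.81e-05), with all 3 OA-NO2 libraries above all 3 vehicle libraries. Against OA, where it stood at 2.14, 0.769 and 1.14 CPM, the difference was 3.76 (3.0004 to 4.52; adjusted p = 0.00085). Nlrp12 and Mup17 lie outside the rule for named genes and were chosen after their values were seen. Nlrp12, a regulator of inflammation in myeloid cells, stood at 124, 71.6 and 80.0 CPM in chow, 37.1, 40.8 and 25.8 CPM with vehicle and 93.6, 118 and 126 CPM with OA-NO2. The difference from vehicle was 1.70 (1.197 to 2.21; adjusted p = 0.0377), and the OA-NO2 libraries lay within or near the chow range (log2 fold change 0.29, adjusted p = 0.511). Mup17, a major urinary protein with near-identical copies among which reads may be split, was 3.49 higher than with vehicle (2.40 to 4.58; adjusted p = 0.0436) and -0.25 from chow. Cd163 was called in both differences under every omission of 1 library. Against vehicle, Nlrp12 kept its call only without OA-NO2 replicate 1 (adjusted p 0.0306; up to 0.188 without any other library), and Mup17 under no omission (0.0538 to 0.262).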

How the results depend on the processing

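Against chow, the 99 calls with OA-NO2 were 621 with DESeq2, 1127 with scaling by total counts alone, 262 with no filter on low counts, 53 in a fit of the 2 groups compared, and 15 to 71 with 1 library left out. Against vehicle, the 3 calls were 300 with DESeq2, 151 with no filter, 62 in the fit of 2 groups and 1 to 4 with 1 library left out. Against OA, the 1 call was 49 with DESeq2, 10 with no filter and 1 to 130 with 1 library left out, the 130 without OA replicate 3. Vehicle against chow gave 5758 calls with total counts alone, in place of 2786, and 1200 to 2276 with 1 library left out. The causes were not tested. Of the 99 genes, 81 were also called with total counts alone, 93 with no filter and 38 in the fit of 2 groups. Scaling by total counts alone changed the sign of the median of 10 of the 37 lists and leaving out 1 library that of 4 (endothelium, immediate early genes, neutrophils and the unfolded protein response). Of 738 values for named genes under alternatives, 537 kept direction and call, 142 lost the call, 55 gained it and 4 changed sign. Those 4, all for genes not called against chow, were Cd163 at -0.040 without OA-NO2 replicate 2 (-0.040 to 0.25 with 1 library left out), and Timd4 at 0.05 (0.055) with total counts alone, 0.05 (0.0484) without OA-NO2 replicate 1 and 0.11 (0.112) without chow replicate 3 (-0.82 to 0.11 with 1 library left out). No paired analysis was possible because the labels give ear tags and no replicate numbers shared between groups. With 3 mice a group, and 8462590 counts in the shallowest chow library, changes of low genes that were not called cannot be read as absent.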

Other observations

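Several genes among the 99 lie outside the lists and the rule for named genes, and were chosen after their values were seen. Actb, the cytoplasmic actin often used as a reference gene, stood at 268, 290 and 379 CPM in chow and at 589, 711 and 541 CPM with OA-NO2, and was called higher by 0.97 ± 0.19 (edgeR adjusted p = 0.045; 1.24 with vehicle), a call lost whichever of the 6 libraries was left out (0.0650 to 0.120). Plvap, a protein of fenestrated endothelium, was called higher by 1.04 ± 0.18 (adjusted p = 0.0381; up to 0.111 with 1 library left out, and called only without OA-NO2 replicate 2), while the 12 tested markers of endothelium gave 0 calls. Ntrk2, the receptor of brain-derived neurotrophic factor, stood at 4.05, 5.37 and 4.61 CPM in chow, 8.44, 8.91 and 12.0 CPM with OA-NO2 and 18.5, 15.9 and 24.6 CPM with vehicle. It was called higher by 1.04 ± 0.20 (adjusted p = 0.045; 0.0542 to 0.111 with 1 library left out, called under no omission), and its 3 OA-NO2 libraries lay between the other groups with no overlap. Gpat3, an enzyme that starts glycerolipid synthesis, was called higher by 1.44 ± 0.25 (adjusted p = 0.0348; up to 0.0873, and called only without OA-NO2 replicate 1 or chow replicate 2), although 1455 bases of it are shared with a transcript on the opposite strand. Rnf145, a ubiquitin ligase of sterol control, was called higher by 1.01 ± 0.20 (adjusted p = 0.045; up to 0.136, and called only without OA-NO2 replicate 2). Adh4, an alcohol dehydrogenase, was called lower, at -1.14 ± 0.18 (adjusted p = 0.0188; up to 0.0819, and lost without OA-NO2 replicate 1 or chow replicate 2 or 3), as was Pdia5, a disulfide isomerase, at -1.09 ± 0.21 (adjusted p = 0.045; up to 0.133, and called only without chow replicate 2).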
